A study of Mus musculus with 11 samples.

Results

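Genes that detect DNA in the cytosol, and the relay that carries the cGAS signal, were examined in inflamed mouse skin with and without Trex2. The set held 9 of the 38406 genes in the expression table, found by symbol. It comprised Mb21d1 (the table's name for cGAS), Tmem173 (STING), Aim2, Zbp1, Ifi204, Ifi205, Mnda, Tbk1 and Irf3, and every one had a mean of at least 10 normalized counts, the minimum for testing. A normalized count is a number of reads divided by a size factor for its library.

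The RNA came from back skin of female C57BL/6 mice of 8 to 10 weeks. The groups were wild type (n = 5, numbered 2 to 6) and Trex2-/- (n = 6, numbered 7 to 12). Both were given imiquimod, which activates the RNA receptor TLR7: 125 mg of a 5% cream a day for 4 days, with skin taken 24 h after the last application. Skin without imiquimod was not analysed here, and the labels name no cell type or promoter that limits the loss of Trex2, nor whether the mice of both genotypes were littermates.

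TREX2 is a 3′ exonuclease of keratinocytes, related to TREX1, which degrades DNA in the cytosol. In the pathway examined, cGAS binds double-stranded DNA and makes the cyclic dinucleotide cGAMP, cGAMP binds STING on the endoplasmic reticulum, and STING recruits the kinase TBK1, which phosphorylates the transcription factor IRF3. AIM2 instead builds an inflammasome on DNA, and ZBP1 reads Z-form nucleic acids and can engage the cell death kinase RIPK3. Several of these genes are themselves induced by interferon.

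Trex2 had 1480 ± 446 normalized counts across wild-type mice (SD, n = 5) against 1.85 ± 0.909 across knockouts (SD, n = 6), and the groups did not overlap. Wild-type libraries held 1208896 to 5853454 reads and knockout libraries 3125366 to 15557862, and depth differed between groups (exact permutation test of mean totals, two-sided, p = 0.026). Knockout libraries 9 and 12 stood apart in their cell type markers. Their summed keratinocyte markers (193852 and 163745 normalized counts) were the highest of all libraries. Their summed macrophage and monocyte markers (12757 and 12387) and neutrophil markers (3832 and 3363) were the lowest. The values of the 9 genes and the medians of several gene lists are given with and without these libraries.

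No gene of the set passed the threshold for a genotype difference, an adjusted p of 0.05 in limma over all 13215 genes tested (0 of 9, where 0.0151% of all genes passed, 2 of 13215). edgeR on the recovered reads called none either, where it called 0.0303% of all genes, and without wild-type library 4 limma called none of the 9 but 5.60% of all genes. In limma without adjustment for the number of genes, 4 of 9 had p under 0.05, against 24.4% of all genes, and all 4 (Tmem173, Zbp1, Ifi204 and Mnda) had the lower mean in knockout, against 11.5% of all genes. Without knockout libraries 9 and 12 that count was 1 of 9 (Ifi204), against 12.5% of all genes. With the mean of the macrophage and monocyte markers or of the keratinocyte markers as a covariate it was 0 of 9, against 5.47% and 5.93% of all genes. The log2 fold change, here always of knockout over wild type and of value + 1, was negative for 7 of 9 genes, against 49.0% of all genes. Its median was -0.41 in the set, -0.26 without libraries 9 and 12, and 0.01 over all genes tested. With depth as a covariate, the log2 fold change was -0.35 for Tmem173, -0.34 for Zbp1, -0.58 for Ifi204 and -0.66 for Mnda. The unadjusted p of these genes in limma was then 0.289, 0.111, 0.0337 and 0.0412, in that order. In no gene of the set did all 6 knockout libraries lie below all 5 wild-type libraries, an arrangement found for 1.29% of all genes. In bulk skin, fewer cells of a type and less RNA per cell cannot be told apart.

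**Figure D1:**
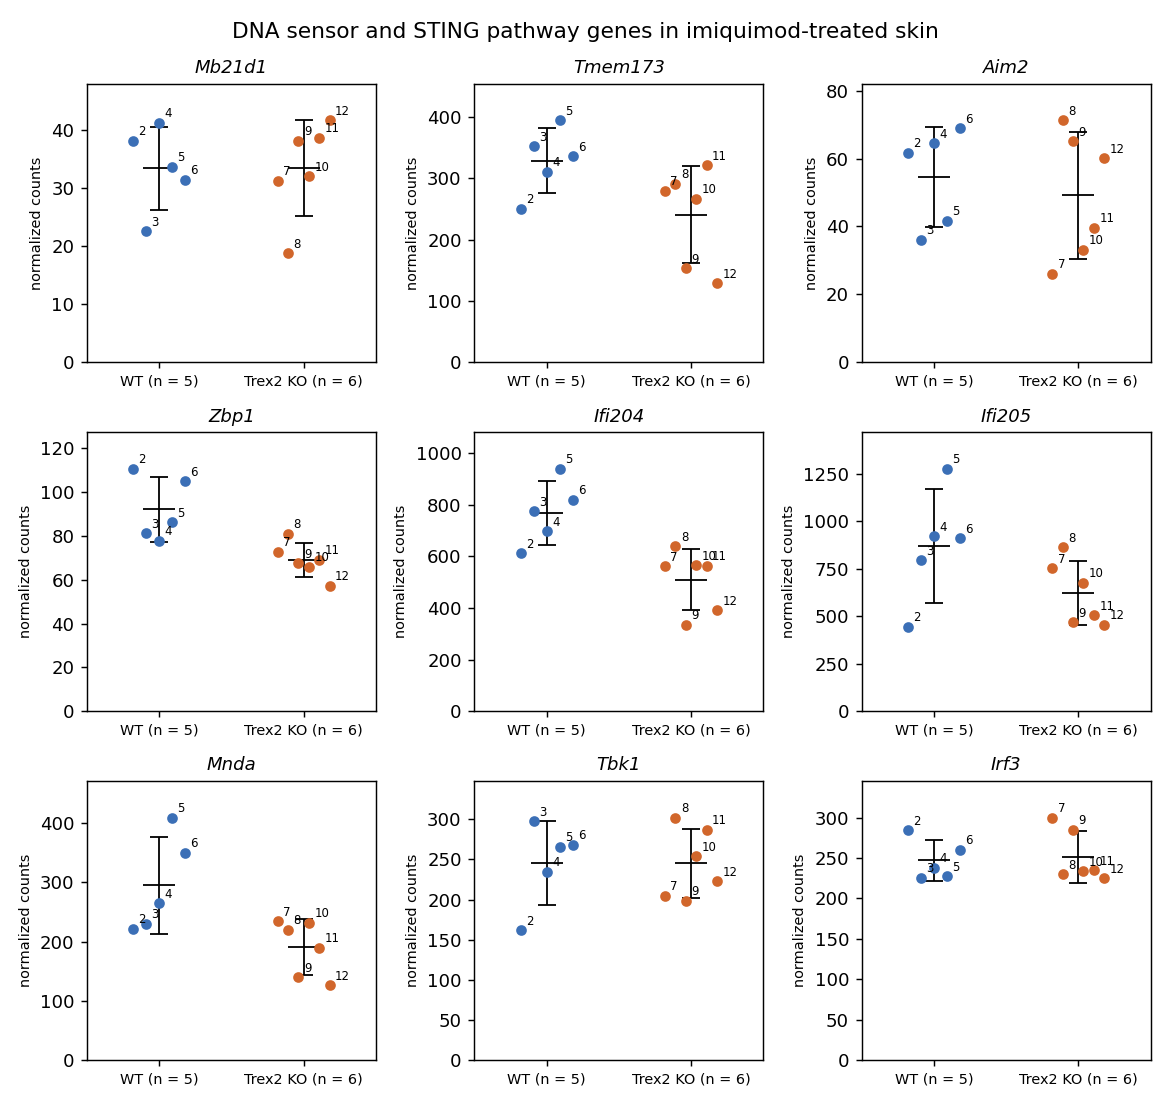
Normalized counts (vertical axes, from 0) of the 9 genes in each library, labelled by its number, for wild type (blue) and Trex2 knockout (orange), with mean and SD as bars. Ifi204 and Zbp1 each have 5 of 6 knockout libraries below every wild-type library, whereas the groups overlap widely for Mb21d1, Tbk1 and Irf3.

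The initiating sensor Mb21d1 had the lowest level of the set. It had 38.1, 22.6, 41.1, 33.6 and 31.4 normalized counts in wild-type libraries 2 to 6, and 18.7 to 41.6 in knockout with a median of 35.0. The ranges overlapped and the means were equal to the digits given, 33.4 ± 7.13 across wild-type mice (SD, n = 5) against 33.4 ± 8.24 across knockouts (SD, n = 6). The log2 fold change was -0.01, with a 95% interval from -0.52 to 0.49 (limma, adjusted p = 0.976). It was -0.31 with depth as a covariate, -0.34 in libraries of 3000000 to 8000000 reads, and -0.29 and -0.28 with the macrophage and keratinocyte covariates. The depth limits this gene: wild-type libraries held 5 to 37 of its reads, knockout libraries 18 to 120. In wild-type library 3, the value of 22.6 came from 5 reads and has a 95% Poisson interval from 7.3 to 52.7, which covers counting error only. Mb21d1 is annotated on GRCm38 as Cgas at chr9:78430526-78443237, on the minus strand, and 4.87% of its exon length lies over another gene.

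The adaptor Tmem173, on chromosome 18, stood lower on average in knockout, most of all in libraries 9 and 12. Wild-type libraries 2 to 6 had 250.4, 352, 310.2, 395 and 336 normalized counts. Knockout libraries 7, 8, 10 and 11 had 279, 291, 267 and 321, within the wild-type range, and libraries 9 and 12 had 153 and 129, below it. The means were 329 ± 53.5 (SD, n = 5) and 240 ± 79.2 (SD, n = 6). In limma the log2 fold change was -0.51 (SE 0.23, unadjusted p = 0.0455, adjusted p = 0.197). Without knockout libraries 9 and 12 it was -0.17 (limma, adjusted p = 0.616). With the mean of the macrophage and monocyte markers as a covariate, it was 0.025. The part of cell makeup in the STING values was not tested beyond these fits.

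Zbp1, the sensor of Z-form nucleic acids, had lower values in most knockout mice, with little spread among them. Wild-type libraries 2 to 6 had 111, 81.2, 77.8, 86.2 and 105 normalized counts, and knockout libraries ran from 57.3 to 81.1 with a median of 68.3. Library 8 was the single knockout library inside the wild-type range, and the other 5 lay below it. The means were 92.2 ± 14.8 (SD, n = 5) and 68.9 ± 7.89 (SD, n = 6), a log2 fold change of -0.41 (SE 0.15, unadjusted p = 0.0162 and adjusted p = 0.139 in limma). Without libraries 9 and 12 it was -0.34 (limma, adjusted p = 0.423). Zbp1 lies at chr2:173206612-173218923, on the minus strand.

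Aim2, the inflammasome sensor, varied as widely within each genotype as between them. It had 61.7, 36.1, 64.5, 41.8 and 69.0 normalized counts in wild-type libraries 2 to 6, and 26.0 to 71.4 in knockout with a median of 49.8. Knockout library 7 was the lowest and knockout library 8 the highest of all 11. The means were 54.6 ± 14.7 (SD, n = 5) and 49.2 ± 18.7 (SD, n = 6), and the log2 fold change of -0.19 has a 95% interval from -0.80 to 0.41 (limma, adjusted p = 0.686). These values rest on few reads, 8 to 58 in a wild-type library and 15 to 173 in a knockout one. Without libraries 9 and 12, where Aim2 was above its knockout median, the log2 fold change was -0.41 (limma, adjusted p = 0.559). It was -0.034 without knockout library 7, -0.53 with depth and -0.58 with the keratinocyte markers as a covariate.

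Ifi204, Ifi205 and Mnda belong, with Aim2, to the PYHIN family, which pairs a pyrin domain with DNA-binding HIN domains, and Ifi204 is a mouse relative of human IFI16. They lie close together on chromosome 1 of GRCm38, all on the minus strand: Ifi204 at chr1:173747293-173766943, Mnda (named Ifi211 in GENCODE M21) at chr1:173896345-173913046 and Ifi205 at chr1:174011998-174031810. Aim2 lies beside them at chr1:173350879-173466040, on the plus strand. Their coding sequences are close copies, so their reads are hard to assign. Ifi204 and Mnda are 96.1% identical over 1275 aligned coding bases, Ifi205 and Mnda 94.7% over 1212, and Ifi204 and Ifi205 91.2% over 1212, while Aim2 is 61.3% to 64.6% identical to the 3. The first 90 coding bases are shown as an example of 1 stretch and do not stand for the whole sequence. Capitals mark the 12 bases at which the shared Mnda and Ifi204 sequence, from the GENCODE M21 transcripts, differs from Ifi205.
Ifi205: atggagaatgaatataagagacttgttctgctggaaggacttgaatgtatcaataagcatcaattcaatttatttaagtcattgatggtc
Mnda: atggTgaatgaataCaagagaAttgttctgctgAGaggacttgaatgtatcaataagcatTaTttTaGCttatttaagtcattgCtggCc
Ifi204: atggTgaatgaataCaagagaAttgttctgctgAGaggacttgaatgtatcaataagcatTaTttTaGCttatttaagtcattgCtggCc

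Across whole transcripts, 72.8% of the 50-base stretches of Mnda occur in transcripts of another gene (44.7% in those of Ifi205), against 20.0% for Ifi204, 18.6% for Ifi205, 0.742% for Aim2 and 0% for Tmem173 and Zbp1. How shared reads were assigned is not given in the sources used here. The separate values of the 3 genes, and above all of Mnda, are therefore uncertain.

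Ifi204 had the smallest p of the set. Wild-type libraries 2 to 6 had 612, 776, 697, 940.4 and 821 normalized counts, and knockout libraries 7 to 12 had 562, 639.7, 336, 566, 565 and 392. Knockout library 8 alone reached into the wild-type range, above wild-type library 2. The means were 769 ± 125 (SD, n = 5) and 510.1 ± 118 (SD, n = 6), with a log2 fold change of -0.61 (SE 0.18, 95% interval -0.99 to -0.23). In limma the unadjusted p was 0.0039 and the adjusted p 0.108. DESeq2 on the recovered reads gave -0.60 with an adjusted p of 0.0405, the single gene of the set that it called, where it called 5.66% of the 10909 genes to which it gave an adjusted p (not Mb21d1), and 2.64% as lower in knockout. Without libraries 9 and 12 the limma value was -0.39 (adjusted p = 0.359).

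Mnda, the member whose reads are the most widely shared, had the lowest ratio of knockout to wild type, 0.645. Its values were 221, 230.1, 265, 409 and 349.9 normalized counts in wild-type libraries 2 to 6, and 126 to 234 in knockout with a median of 205. Knockout libraries 7 and 10 lay within the wild-type range and the other 4 below it. The means were 295 ± 81.6 (SD, n = 5) and 190 ± 47.4 (SD, n = 6), with a log2 fold change of -0.63 (SE 0.21, unadjusted p = 0.00999 and adjusted p = 0.121 in limma). Without libraries 9 and 12 it was -0.39 (limma, adjusted p = 0.408).

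Ifi205 overlapped fully between the groups. Wild-type libraries 2 to 6 had 445, 794, 921, 1275 and 908 normalized counts, and knockout libraries had 455 to 863 with a median of 589.7. Wild-type library 2 was the lowest of all 11 and wild-type library 5 the highest. The means were 869 ± 298 (SD, n = 5) and 620 ± 169 (SD, n = 6), with a log2 fold change of -0.45 (SE 0.25, limma adjusted p = 0.269). It ranged from -0.67 without wild-type library 2 to -0.29 without wild-type library 5, and was -0.26 without knockout libraries 9 and 12 (limma, adjusted p = 0.659).

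The sum of the 3 near-identical genes does not depend on how reads were divided among them, provided that shared reads were counted at all. Whether any were dropped is not known. The sum would lack dropped reads, and it can still hold reads of further genes. It was 1933 ± 487 normalized counts across wild-type mice (SD, n = 5, range 1278 to 2625) against 1320 ± 317 across knockouts (SD, n = 6, range 945 to 1722). Knockout libraries 9, 11 and 12, that is 3 of 6, were lower than any wild-type one. For the sum, the log2 fold change came to -0.55 (SE 0.20, 95% interval -0.98 to -0.12), with an adjusted p of 0.14 in limma. Without libraries 9 and 12 it was -0.34 (limma, adjusted p = 0.456).

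**Figure D2:**
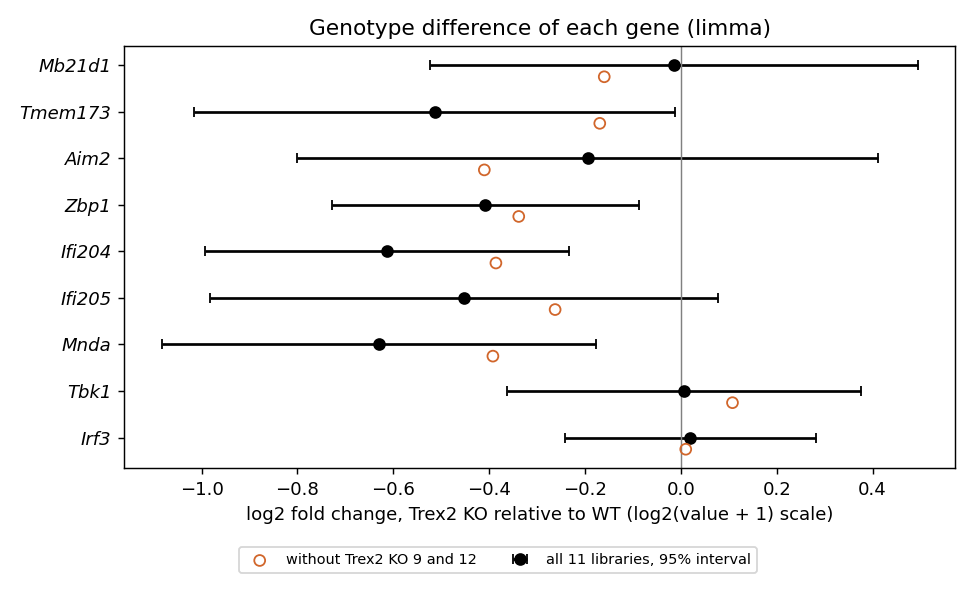
Log2 fold change of each gene, Trex2 knockout over wild type (horizontal axis, of value + 1), in limma with all 11 libraries (filled points, bars for the 95% interval) and without knockout libraries 9 and 12 (open points). Tmem173 goes from -0.51 to -0.17 without these libraries, and Zbp1 from -0.41 to -0.34.

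Downstream of STING, the means of the kinase and the transcription factor were nearly equal between genotypes. Tbk1, the kinase, had 162, 298, 235, 266 and 268 normalized counts in wild-type libraries 2 to 6 and 198 to 302 in knockout with a median of 239. Wild-type library 2 was the lowest, and the groups otherwise overlapped. The means were 246 ± 52.1 (SD, n = 5) and 245 ± 43.4 (SD, n = 6), with a log2 fold change of 0.01 and a 95% interval from -0.36 to 0.38 (limma, adjusted p = 0.982). With the macrophage covariate it was 0.25, and 0.11 without knockout libraries 9 and 12. Irf3, the transcription factor, had the smallest SE of the set (0.12 on the log2 scale). It had 285, 226, 238, 228 and 260.5 normalized counts in wild type and 225 to 300.2 in knockout with a median of 234, with means of 247 ± 25.1 (SD, n = 5) and 251 ± 32.4 (SD, n = 6). Its log2 fold change was 0.02, with a 95% interval from -0.24 to 0.28 (limma, adjusted p = 0.934). These intervals concern transcript levels, and phosphorylation of either protein was not measured. Tbk1 lies at chr10:121546455-121586787, on the minus strand. Irf3 lies at chr7:44997648-45002848, on the plus strand, where 2.56% of its exon length overlaps Bcl2l12.

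Levels were compared between genes per kilobase of exon. In wild type, Ifi204 and Ifi205 led, at 216 ± 35.0 and 208 ± 71.3 normalized counts per kilobase (SD, n = 5), followed by Mnda at 165 ± 45.7 and Tmem173 at 120 ± 19.5 (119.9 before rounding). Irf3 had 71.9 ± 7.30 and Tbk1 62.8 ± 13.3, then Zbp1 26.1 ± 4.18, Aim2 15.6 ± 4.20 and Mb21d1 8.08 ± 1.73. Neighbours in this order differed by more than both of their SDs at 4 steps: Tmem173 above Irf3, Tbk1 above Zbp1, Zbp1 above Aim2 and Aim2 above Mb21d1. The other neighbours did not. STING transcript thus stood above that of its kinase and that of cGAS. In knockout, Ifi205 came before Ifi204 (148 ± 40.5 and 143 ± 33.2 per kilobase, SD, n = 6), a change of order within the spread, and Mnda had 107 ± 26.5. Tmem173 at 87.6 ± 28.9 was closer to Irf3 at 73.1 ± 9.41, and the step between them no longer exceeded both SDs. Tbk1 had 62.7 ± 11.1, Zbp1 19.5 ± 2.24, Aim2 14.1 ± 5.34 and Mb21d1 8.09 ± 2.00 per kilobase.

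After subtraction of each genotype's mean, Tmem173 and the PYHIN trio varied together from mouse to mouse, given here as a description over 11 libraries that share the normalization. For the 6 pairs among Tmem173, Ifi204, Ifi205 and Mnda, Pearson's r on the log2 scale was 0.66 to 0.91 and Spearman's rho 0.65 to 0.88. Without the 2 libraries farthest from the median, r was 0.61 to 0.90. Tmem173 and Ifi204 were the closest pair, at r = 0.91. Such values were not particular to this group. Ranked by r with Tmem173 among all tested genes, Ifi204 stood at 40, Mnda at 460 and Ifi205 at 1397. For Ifi204, Mnda stood at 184 and Ifi205 at 618, and for Ifi205, Mnda stood at 49. Tbk1 had r = 0.70 with Ifi204, 0.63 with Tmem173 and with Ifi205, and 0.44 with Mnda. Without the 2 libraries farthest from the median of the other gene, r with Tbk1 was 0.70 for Ifi204 and for Tmem173, 0.40 for Mnda and 0.23 for Ifi205. The trio share 50-base stretches with each other or with further genes, and Tmem173 shares none with any gene. The part of shared reads in these values was not tested. Mb21d1, with as few as 5 reads in a library, ran against Tmem173, the trio and Tbk1, with r from -0.58 to -0.34 in these 5 pairs. Without the 2 libraries farthest from its median, r was -0.84 to -0.25 in them, with Tbk1 at -0.25. Mb21d1 and Zbp1 also had r = -0.34. Tbk1 and Irf3 had r = -0.75 and rho = -0.61, and r = -0.56 without the 2 farthest libraries.

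**Figure D3:**
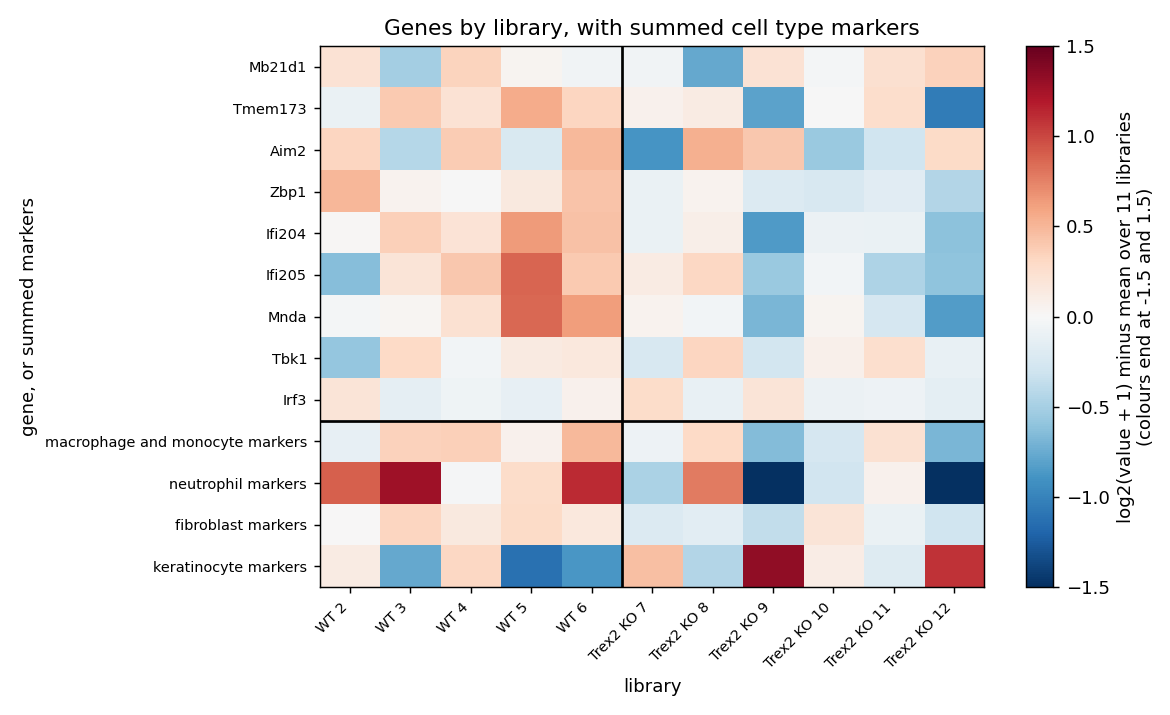
Deviation of each gene, and of 4 summed marker lists, from its mean over 11 libraries (colour, log2(value + 1) scale, ending at -1.5 and 1.5), with wild type left and Trex2 knockout right of the line. Tmem173, Ifi204, Ifi205 and Mnda are low in knockout libraries 9 and 12, where macrophage and neutrophil markers are low and keratinocyte markers high.

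The promoters of 6 of the 9 genes were taken from a RefSeq table (GRCm38.p6). Zbp1 and Ifi204 had no entry there. Tmem173 was left out of the search by choice, so the counts below say nothing about its promoter. The 6 were searched for an interferon response core, GAAA followed by 2 bases of any kind and GAAA again. This core was sought on either strand within 250 bases upstream of the start. It occurred in Ifi205 and Mnda and not in Mb21d1, Aim2, Tbk1 or Irf3, that is in 2 of 6, against 2.98% of 32851 promoters of that length. The interferon gamma element TTCNNNGAA was in 0 of 6, against 7.02% of promoters. The 2 promoters with a match are shown because they carry the same 10 letters (capitals) in related surroundings. In Ifi205 (chr1:174031756-174032005, minus strand) the match runs from -134 to -125 from the start, and in Mnda (chr1:173913047-173913296, minus strand) from -37 to -28. Over 151 aligned bases, which include the match, the promoters are 93.4% identical. The 2 matches are therefore not independent of each other, which limits the comparison of 2 of 6 with all promoters. A match describes letters, and binding was not measured.
Ifi205 promoter: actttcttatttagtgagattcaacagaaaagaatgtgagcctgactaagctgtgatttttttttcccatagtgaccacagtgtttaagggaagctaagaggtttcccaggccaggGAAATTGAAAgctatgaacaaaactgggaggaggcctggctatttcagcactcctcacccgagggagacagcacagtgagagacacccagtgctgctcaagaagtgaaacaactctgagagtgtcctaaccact
Mnda promoter: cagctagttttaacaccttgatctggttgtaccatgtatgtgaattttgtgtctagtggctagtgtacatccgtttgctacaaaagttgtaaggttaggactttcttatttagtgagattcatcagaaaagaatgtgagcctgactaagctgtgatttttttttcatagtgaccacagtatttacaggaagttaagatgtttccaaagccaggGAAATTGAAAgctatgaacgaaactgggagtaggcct

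Summed cell type markers overlapped between the genotypes for 9 of 11 lists, and no marker passed the threshold in limma. Summed macrophage and monocyte markers were 18314 to 28002 normalized counts in wild type and 12387 to 24662 in knockout, with 9 of 10 log2 fold changes negative (median -0.54, led by Ly6c2 at -1.52). All 7 neutrophil markers were negative (sums of 12543 to 30487 and 3363 to 21751), as were all 5 fibroblast markers (35016 to 43745 and 27026 to 40019) and all 5 endothelial markers (1742 to 2888 and 1053 to 2660). None of the 6 keratinocyte markers was negative (35510 to 95974 in wild type, 57270 to 193852 in knockout). The sums of the other 2 lists did not overlap, those of T cells (89.0 to 113 and 44.1 to 70.7) and natural killer cells (123 to 320 and 42.3 to 101), both low, with 2 of 7 and 3 of 4 markers tested. The 2 tested T cell markers went opposite ways, Lck at -0.68 and Cd4 at 0.63, and 2 of the 4 tested dendritic and Langerhans cell markers were negative (median 0.11). Dendritic and Langerhans cell markers had sums of 71.7 to 138 and 67.5 to 120, and B cell markers 0 to 14.5 and 2.14 to 7.94. Muscle markers summed to 30102 to 46178 and 20233 to 43754, and adipocyte markers to 6700 to 15004 and 5054 to 11204. The marker of smallest p in each further list with tested genes had a log2 fold change of 1.23 (Dsg3, keratinocyte), -1.61 (Stfa2l1, neutrophil), -1.77 (Gzma, natural killer cell), 1.001 (Cd207, Langerhans cell), -0.31 (Col1a2, fibroblast), -0.50 (Cdh5, endothelial cell), -0.75 (Myh4, muscle) and -0.61 (Cfd, adipocyte). No marker was at 0 in every library, and the keratinocyte sums show the labelled skin. With the macrophage and monocyte markers as a covariate, log2 fold changes were -0.27 for Ifi204, -0.34 for Mnda, -0.18 for Ifi205 and -0.29 for Zbp1. With the keratinocyte markers they were -0.28, -0.27, -0.17 and -0.30, and -0.07 for Tmem173. These fits were chosen after the data were seen.

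The genes around the pathway were read from 9 lists with 90 tested genes, and none passed the threshold in limma. Of the 90 genes, 25 had an unadjusted p under 0.05, where 24.4% of all genes did. The PYHIN genes outside the set had 5 tested members, all with negative log2 fold changes (median -0.39), and 2 had an unadjusted p under 0.05 in the lower direction, where 11.5% of all genes did. Without knockout libraries 9 and 12, 4 of 5 were negative, with a median of -0.23 and none under that p. The median was -0.07 with the macrophage and -0.17 with the keratinocyte covariate. Ifi202b had 1038 ± 283 normalized counts across wild-type mice (SD, n = 5) against 749 ± 418 across knockouts (SD, n = 6), a log2 fold change of -0.62. Ifi203 had 193 ± 30.7 and 147 ± 36.4 (-0.42), and Mndal 158 ± 21.6 and 125 ± 24.2 (-0.34). These genes belong to the same family, and reads they could share with the set were not counted separately.

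Other DNA sensors and cofactors stood mostly on the other side, with 12 of 16 log2 fold changes positive (median 0.15, but 0.0036 with depth as a covariate). Xrcc5, the Ku80 subunit that binds broken DNA ends, had 125 ± 3.89 normalized counts across wild-type mice (SD, n = 5) against 178 ± 37.4 across knockouts (SD, n = 6). All 6 knockout libraries were above all 5 wild-type libraries, as for 1.02% of all genes. The margin was narrow, with a lowest knockout value of 131.3 and a highest wild-type value of 131.2. Xrcc5 was the single one of the 90 list genes with this arrangement. The log2 difference came to 0.48 (SE 0.15, adjusted p = 0.112 in limma). Mre11a, a nuclease of DNA repair, had 93.9 ± 15.6 and 127 ± 15.9 (0.43), while Pqbp1, a cofactor of cGAS, had 355 ± 41.7 and 281 ± 29.8 (-0.33). Genes of cGAMP handling and STING traffic were divided evenly, 10 negative and 10 positive (median -0.00058). Among them Sec24c, part of the coat that carries STING from the endoplasmic reticulum, had 523 ± 91.1 and 720 ± 124 (0.46), and the interferon-induced Trim30a and Usp18 had -0.43 and -0.54.

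Partners of TBK1 and IRF3 had 7 negative and 4 positive values (median -0.08). Tbkbp1, an adaptor of TBK1, had 112 ± 18.4 normalized counts across wild-type mice (SD, n = 5) against 75.4 ± 27.4 across knockouts (SD, n = 6), a log2 fold change of -0.64. Irf7, the interferon-induced relative of IRF3, had 191 ± 22.9 and 142 ± 26.0 (-0.44), and the helicase Ddx3x 1527 ± 355 and 2170 ± 496 (0.51). Cytosolic RNA sensors had 5 of 7 negative values (median -0.21, but -0.087 without knockout libraries 9 and 12 and 0.14 with reads thinned to the shallowest library) and none with an unadjusted p under 0.05. Dhx58 (-0.33), Trim25 (-0.21) and Mavs (0.25) had the smallest p among them.

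The AIM2 inflammasome partners had 5 of 7 negative values (median -0.27), 2 of them with an unadjusted p under 0.05, where 11.5% of all genes were lower with such a p. Without knockout libraries 9 and 12 the median was -0.17 with 0 of 7 under that p, and with the macrophage covariate it was -0.096. The 2 genes were the inflammatory caspase Casp4, with 295 ± 65.8 normalized counts across wild-type mice (SD, n = 5) against 182 ± 81.1 across knockouts (SD, n = 6), and Gsdmd, which forms the membrane pore, with 253 ± 37.6 and 174 ± 57.4. Their log2 fold changes were -0.77 and -0.59, and that of Casp1 was -0.27. Partners of ZBP1 had 2 negative and 3 positive values (median 0.04). Ripk3, the kinase that ZBP1 engages, had 389 ± 63.5 and 290 ± 44.6 (-0.42), beside Ripk1 at 0.09 and Fadd at 0.20.

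Early targets of IRF3 had the lowest median of the 9 lists, -0.61, with 9 of 9 tested genes negative, where 49.0% of all genes were, and 5 with an unadjusted p under 0.05, where 11.5% were lower with such a p. Without knockout libraries 9 and 12 the median was -0.45 and 4 of 9 were under that p, against 6.02% of all genes. The median was -0.39 with either marker covariate. With depth as a covariate it was -0.57, with 8 of 9 negative and 1 of 9 with an unadjusted p under 0.05 in limma. Without knockout library 10, 7 of 9 were negative. Ccl5, a chemokine for T cells, had 100.5 ± 37.3 normalized counts across wild-type mice (SD, n = 5) against 37.2 ± 13.1 across knockouts (SD, n = 6), and a log2 fold change of -1.37 with SE 0.35 (limma adjusted p = 0.108, DESeq2 adjusted p = 0.00947). Cxcl10, a chemokine induced by interferon, had 38.9 ± 23.3 and 18.2 ± 7.21 (-0.98), and the exonuclease Isg20 had 91.7 ± 20.0 and 58.4 ± 18.9 (-0.68). These genes are also targets of interferon receptors and are made by several immune cells, and the sums of T cell and natural killer cell markers were lower in every knockout library than in any wild-type library. The part of those cells was not tested. Ifnb1 and Ifna4, the interferons nearest to IRF3, had no read in any library. The 3 reads that a count of 0 allows correspond to 1.04 to 13.5 normalized counts, depending on the library. Nucleases and factors that limit self DNA had 7 of 10 negative values (median -0.06, and -0.15 without knockout libraries 9 and 12). Dnase2a, the lysosomal nuclease, had 421 ± 62.0 and 314 ± 50.2 (-0.42), Dnase1l3, a secreted nuclease, 187 ± 85.0 and 270 ± 43.9 (0.64), and Pld4 a log2 fold change of -0.23.

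**Figure D4:**
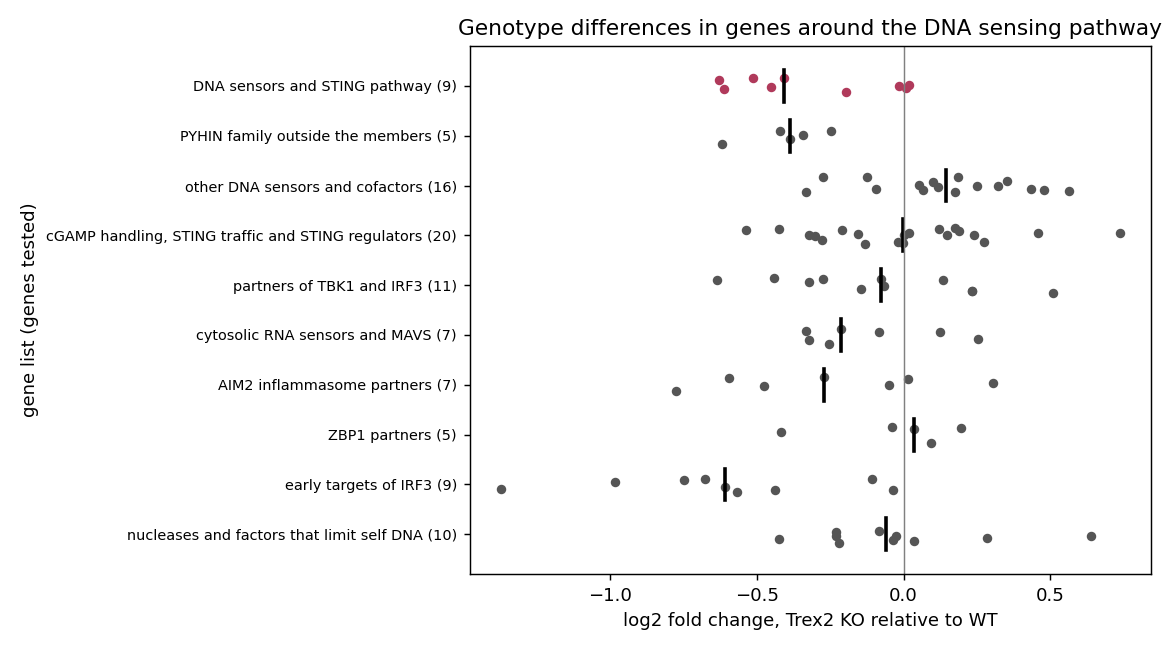
Log2 fold change in limma, Trex2 knockout over wild type (horizontal axis), of each tested gene (points) in the set (red) and in 9 lists around it (grey), with the median as a bar and the number of genes in parentheses. The set has a median of -0.41 and the early targets of IRF3 -0.61, while other DNA sensors lie mostly above 0.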

How the data were processed

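RNA-seq of 11 skin samples was analysed. The deposited values are a normalized signal, counts divided by 1 size factor per library. TopHat2 2.0.8, featureCounts 1.4.6, DESeq2 1.8.1 and GRCm38 were used, per the submitters' processing notes; for their order, annotation and strand setting, the sources used here say nothing. Values were whole multiples of 1 read (100% within 0.01), so reads were recovered for edgeR 4.0.16 and DESeq2 1.42.0. The main test was limma 3.58.1 (R 4.3.3, mean-variance trend) on log2(value + 1), for genes whose mean reached 10, with Benjamini-Hochberg adjustment over 13215 genes. Replicates are separate mice by the labels' numbering. The 9 genes, the lists and the tests were chosen with earlier results of these data known. Named genes are the 9, the 3 of smallest p in each list, 1 marker per cell type and the 3 genes most alike to each of the 9; Bcl2l12 was named for its overlap. A gene that this rule takes is not reported here. Scripts were tested on simulated counts. Depth was 1208896 to 15557862 reads, which limits the weakest genes. Poisson intervals cover counting error and no other. Alternatives were pseudocounts, filters, TMM and upper quartile scaling, array weights, a depth covariate, leaving out each library, and leaving out knockout libraries 9 and 12. Libraries of 3000000 to 8000000 reads, thinning, marker covariates and the sum of the 3 near-identical genes were added after seeing the data. Positions and transcripts come from GENCODE M21 on GRCm38, promoters from RefSeq.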

Additional observations from a re-analysis of the deposited data

How the results depend on the processing

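No paired analysis was possible because the groups share no replicate numbers. Over 26 alternatives, the number of the 9 genes called was 0 in 25, leaving out each library included, and 1 (Ifi204) with DESeq2, which called 617 of 10909 genes where limma called 2 and edgeR 4. Without wild-type library 4, limma called 740 of 13204 genes and none of the set. The median log2 fold change stayed between -0.46 and -0.26. Tmem173 turned to 0.025 with the macrophage and monocyte covariate. The 3 genes near 0 changed sign, and Mb21d1 also moved to -0.34 in libraries of 3000000 to 8000000 reads, Tbk1 to 0.25 with the macrophage covariate and Irf3 to 0.13 with depth as a covariate. Mb21d1 was 0.019 with TMM scaling and 0.080 with thinned reads, Tbk1 -0.033 with upper quartile scaling and -0.068 with thinned reads, and Irf3 -0.020 with upper quartile scaling, -0.0068 with array weights, -0.024 with the macrophage and -0.012 with the keratinocyte covariate. Leaving out each library gave -0.14 to 0.14 for Mb21d1, -0.14 to 0.084 for Tbk1 and -0.033 to 0.072 for Irf3. With the macrophage covariate the medians of the partners of TBK1 and IRF3 and of the RNA sensors were 0.08 and 0.10. With depth as a covariate, the medians of the partners of TBK1 and IRF3 and of the nucleases were 0.021 and 0.086. The median of the ZBP1 partners was -0.13 with depth as a covariate, -0.14 in libraries of 3000000 to 8000000 reads and 0.15 with the keratinocyte covariate. The cause of these changes was not tested. Depth limits Mb21d1 and Aim2 most, with as few as 5 and 8 reads in a library.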

Other observations

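For each of the 9 genes, genes most alike in their variation from mouse to mouse were taken from 13214 tested genes, by Pearson's r of log2(value + 1) after subtraction of each genotype's mean, over 11 libraries that share the normalization. With so many candidates high values are found for any gene, and these are a description. Tmem173 was most like Cdr2l (r = 0.96), Scarb1 (0.95) and Adprhl1 (0.94). Ifi204 was most like Uap1 (0.98), Rhoj (0.96) and Lix1l (0.96), Ifi205 like Fam198b (0.97), C1s (0.92) and Cyp7b1 (0.92), and Mnda like Fcer1a (0.94), Lbp (0.94) and Khdrbs3 (0.93). Zbp1 was nearest to Cox8b (0.96) and Wbp5 (0.95), and Aim2 to Zc3h15 (0.87), Bnip3l (0.85) and Fancg (0.82). Mb21d1 had Sf3a1 (0.94), Gtf2ird1 (0.92) and Ulk3 (0.91), Tbk1 had St6galnac6 (0.96), Abcc5 (0.96) and Pla2r1 (0.95), and Irf3 had Creld2 (0.96), Ube2l3 (0.95) and Lsm4 (0.94). Spearman's rho for these pairs was 0.61 to 0.99, and r without the 2 libraries farthest from the median was 0.72 to 0.96. None of these genes was itself in the set. The value for Mb21d1 and Sf3a1 was 0.72 without those 2 libraries.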
